A study of Mus musculus with 4 samples.

Results

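Described here are 10 genes of the intercellular tight junction, measured in organoids of mouse colon adenoma: the claudin genes Cldn2, Cldn3, Cldn4, Cldn7, Cldn12, Cldn15 and Cldn23, with Ocln, Tjp1 and F11r. They were found as every probe set annotated to 1 of these symbols, which gave 13 of the 45037 probe sets that are not controls, and 10 of the 17097 genes named on the array. The genes were chosen by name, but with the differences between the genotypes already known, among them that of Cldn2, and so were in part selected on the values of that contrast. Their differences between genotypes are therefore given as a description, with no p-value, and counts of members called in that contrast are printed without being read as a result. Cldn2, Cldn3 and Cldn12 had 2 probe sets each and the other genes had 1.

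The organoids are 3D cultures of tumour epithelium on a C57BL/6 background, and both groups carried floxed Apc (Apcfl/fl), the suppressor of Wnt signalling whose loss starts intestinal adenomas, and a VillinCreERT2 transgene. That transgene makes a recombinase in intestinal epithelium that tamoxifen activates. The group labelled Apc null had the alleles Gata6+/+ and comprised 2 arrays, and the group labelled Gata6 null/Apc null had Gata6fl/fl and comprised 2 arrays. GATA6 is a zinc finger transcription factor of the endoderm. Batches A and B contributed 1 array each to both groups, and all organoids had been cultured for 7 days with EGF at 50 ng/mL. The age of the mice, the number of mice behind an organoid line and the cells without recombination are not given in the labels. The comparison addresses which genes depend on GATA6 in adenoma cells.

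Values are log2 expression per probe set after RMA, which corrects background and makes the distributions of the arrays equal before a level is computed. Array medians lay between 4.91 and 5.04 log2 units, and correlations between arrays between 0.963 and 0.979. A level of 4.45 log2 units, the 40th percentile of the probe sets, served as the limit under which a mean was taken as dim. All 13 probe sets had a mean over the 4 arrays above it. Gata6 itself read 8.89 and 8.61 (batches A and B) in the Apc null arrays and 9.37 and 9.40 in the others at its brighter probe set, and 8.83 and 8.65 against 9.11 and 9.21 at the other. It was thus brighter where the label says null, by 0.64 (SE 0.18) and 0.42 (SE 0.18) log2 units. Whether these probes fall inside the floxed exons was not determined, so they check nothing, and every genotype and direction given here rests on the labels. The brightest Apc probe set read 8.14 to 8.35 on the 4 arrays, all of which carry the floxed allele. Among markers of the cell types that the cultures could hold, the epithelial genes Epcam, Krt8, Krt18 and Krt19 read 10.8 to 12.1 on all arrays. The summed level of 6 fibroblast markers lay between 6.55 and 6.62 in the Apc null arrays and between 6.54 and 6.59 in the others. Of these, Col1a1, Col1a2, Col3a1, Pdgfra and Lum were under the dim limit on each array, and Dcn read 4.37 to 4.57. The summed level of 5 endothelial markers lay between 6.54 and 6.65 against 6.45 and 6.67. Of 5 immune markers, Ptprc and Cd3e read at most 3.60 on each array, Csf1r read 4.58 to 4.73 and Cd79a 4.83 to 5.11. Cd68 read 5.92 and 7.57 against 4.94 and 7.23, higher in batch B, and the summed level of the 5 lay between 7.09 and 8.05 against 6.79 and 7.81. In RNA from whole cultures, fewer cells of a type and less RNA per cell cannot be told apart.

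Tight junctions seal the space between epithelial cells at the apical end of their lateral membranes. Claudins are membrane proteins whose extracellular loops meet across the gap, and the set of claudins a cell makes decides which ions pass. Claudin-2 and claudin-15 form pores for small cations and, for claudin-2, water, while claudin-3 and claudin-4 tighten the barrier. Occludin and the junctional adhesion molecule JAM-A span the membrane beside them, and ZO-1 ties them to the actin cytoskeleton. In the gut, claudin-2 is found mainly in crypts, and claudin-4 and claudin-23 towards the surface.

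The promoters of the pore-forming claudins and of Tjp1 are shown. Cldn2 had by far the largest difference of the 10 genes, and Cldn15 is its closest counterpart in function. Tjp1 alone, of the 9 genes with a promoter window, held TGATAA or AGATAA, the letters searched for GATA factors. Variants of these letters were not searched, and the Cldn4 window held TGATAG. RefSeq promoter windows on GRCm38.p6, from 250 bases before to 50 bases after a transcription start, matched 9 of the 10 genes. Cldn23 had none, and the 9 genes had 13 windows in all. They were searched on both strands, among 32851 such windows, for motifs of the factors that act on intestinal genes: TGATAA and AGATAA for GATA factors, CTTTGAT and CTTTGAA for TCF and LEF factors, TTTATTG and TTTATGG for CDX factors, and GTTAAT for HNF1 factors. The part before the start is printed 5′ to 3′ on the strand of the gene, with matches in capitals. It lies at chrX:139800558-139800807 (plus strand) for Cldn2, at chr5:136967619-136967868 (plus strand) for Cldn15 and at chr7:65371245-65371494 (minus strand) for Tjp1.
Cldn2: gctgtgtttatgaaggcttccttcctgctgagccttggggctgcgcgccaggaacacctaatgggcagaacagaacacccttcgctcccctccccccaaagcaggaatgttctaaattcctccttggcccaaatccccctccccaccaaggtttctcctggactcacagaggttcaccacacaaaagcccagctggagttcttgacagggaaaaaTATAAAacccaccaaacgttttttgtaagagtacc
Cldn15: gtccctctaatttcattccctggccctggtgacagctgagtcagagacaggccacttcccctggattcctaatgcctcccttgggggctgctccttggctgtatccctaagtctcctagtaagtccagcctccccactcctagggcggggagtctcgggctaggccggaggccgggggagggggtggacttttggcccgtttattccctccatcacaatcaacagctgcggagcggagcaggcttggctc
Tjp1: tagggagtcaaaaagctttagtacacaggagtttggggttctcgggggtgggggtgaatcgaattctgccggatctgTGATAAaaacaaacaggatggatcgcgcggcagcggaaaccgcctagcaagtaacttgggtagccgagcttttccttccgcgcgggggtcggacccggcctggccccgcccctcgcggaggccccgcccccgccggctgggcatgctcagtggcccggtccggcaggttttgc
The capitals in the Cldn2 sequence mark TATAAA, the core of a TATA box, which was added to the search after this window had been read. It lies 35 to 30 bases before the start, and 13.6% of all windows held it, but none of the other 8 genes. In the Tjp1 sequence they mark TGATAA, 173 to 168 bases before the start, a motif that 9.05% of all windows held. With either GATA motif counted, the share of all windows was 18.6%. No window of the 9 genes held AGATAA or any TCF, LEF, CDX or HNF1 motif searched, which were in 2.75% to 11.2% of all windows each. The absence of these letters from 300 bases says nothing of the factors, which can bind elsewhere or at other letters. The Cldn2 window had 5 CG dinucleotides and a GC content of 51.3%, against medians of 7 and 52.7% over all windows, and the Tjp1 window had 31 CG dinucleotides and 65.3%.

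Cldn2, the pore-forming claudin of the crypt, was bright in the Apc null organoids and far lower in those labelled Gata6 null/Apc null. Its brighter probe set read 10.62 in batch A and 10.53 in batch B of the Apc null arrays, and 5.44 and 5.86 in the arrays bearing the label Gata6 null/Apc null. The groups were far apart, and each of the 4 arrays of this probe set stood above the dim limit. The difference was -4.93 log2 units (SE 0.24 from the limma fit over 27022 probe sets, 2 arrays per group), a 30.4-fold lower level. The dimmer probe set read 10.06 and 10.00 against 3.65 and 4.67. It fell below the dim limit in batch A of the arrays bearing the label Gata6 null/Apc null, so its difference of -5.87 (SE 0.40), or 58.5-fold, depends on the array floor. That probe set passed the filter only through the Apc null arrays. Over 11874 genes with a mean at or above the limit, the Cldn2 difference ranked 1 among the decreases, with rank 1 in batch A alone (-5.18) and rank 2 in batch B alone (-4.67). In the arrays bearing the label Gata6 null/Apc null, batch B read above batch A by 0.42 at the brighter probe set and by 1.02 at the dimmer one, whereas the Apc null arrays differed by -0.09 and -0.06.

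**Figure D1:**
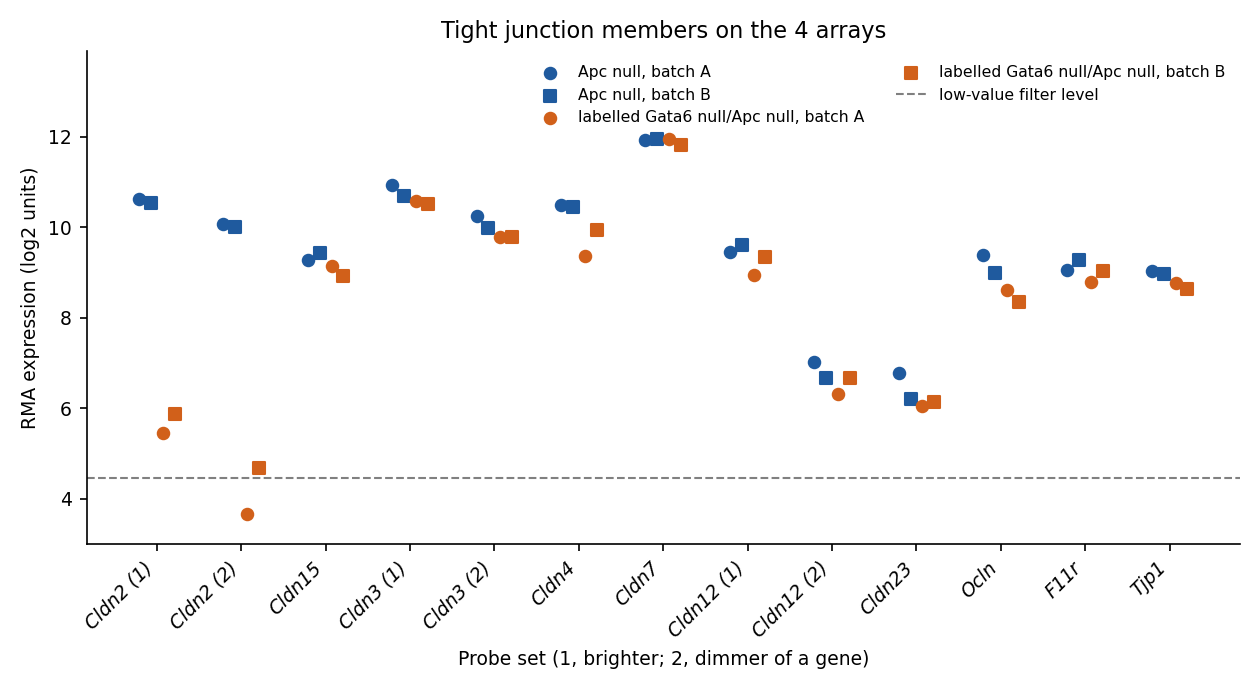
RMA log2 expression of the 13 probe sets on each of the 4 arrays (blue, Apc null; orange, labelled Gata6 null/Apc null; circles, batch A; squares, batch B), with the dim limit of 4.45 as a dashed line. Both Cldn2 probe sets read at least 10.00 in the Apc null arrays and at most 5.86 in the others, while the 4 arrays lie far closer together for every other probe set. Heights of different probe sets are not comparable.

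Cldn15, the other pore-forming claudin, read 9.27 and 9.43 in the Apc null arrays and 9.13 and 8.92 in the arrays bearing the label Gata6 null/Apc null. The groups did not overlap, with a difference of -0.32 (SE 0.18) and within-group SDs of 0.12 and 0.15. The batch A arrays differed by -0.14 and the batch B arrays by -0.51. The pair of pore formers thus differed by very different amounts, with both Cldn2 probe sets more than 4 log2 units lower and Cldn15 within 1.

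The barrier claudins Cldn3, Cldn4 and Cldn7 stayed bright in both groups. Cldn4 had the largest difference of the members after Cldn2. It read 10.48 and 10.44 in the Apc null arrays against 9.36 and 9.93, a difference of -0.81 (SE 0.22) or 1.76-fold. Both arrays labelled Gata6 null/Apc null were lower than both Apc null arrays, by 1.12 in batch A but by 0.50 in batch B, since batch A read 0.58 under batch B there. Cldn3 read 10.94 and 10.70 against 10.57 and 10.51 at its brighter probe set, which can match shared sequence, and 10.25 and 9.98 against 9.79 and 9.78 at the other. The probe sets had alike differences, of -0.28 (SE 0.13) and -0.33 (SE 0.15), with the groups apart at each. Cldn7, which binds the adhesion molecule EpCAM, read 11.92 and 11.95 against 11.95 and 11.82. Its groups overlapped, and its difference of -0.05 (SE 0.08) had opposite signs in batch A (0.03) and batch B (-0.13). Cldn3 and Cldn4 are neighbours on chromosome 5 in the RefSeq table, with no coding gene between them. The nearest other tested genes, chosen by position, were Mettl27 (-0.43) and Cldn13 (0.12) on one side, both with overlapping groups. On the other side, Abhd11 (-0.25, SE 0.15) was lower and Stx1a (1.69, SE 0.51) higher without overlap, where 32.0% of all genes were apart in either direction.

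Cldn12, a claudin implicated in calcium transport, and Cldn23 had small differences. The brighter Cldn12 probe set read 9.45 and 9.61 against 8.94 and 9.34, a difference of -0.39 (SE 0.21). The dimmer one read 7.02 and 6.67 against 6.31 and 6.66 and differed by -0.36 (SE 0.28), and this came from batch A (-0.71) rather than batch B (-0.01). Cldn23 read 6.79 and 6.21 against 6.05 and 6.13. Its difference of -0.40 (SE 0.30) came mainly from the Apc null array of batch A, which made the batch A difference -0.73 and the batch B difference -0.07.

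Of the remaining junction proteins, Ocln had the largest difference. Its probe set, for the membrane protein occludin, read 9.39 and 8.99 in the Apc null arrays and 8.62 and 8.34 in the arrays bearing the label Gata6 null/Apc null. It differed by -0.71 (SE 0.23) or 1.64-fold (batch A, -0.77 and batch B, -0.65), and batch B read below batch A in both genotypes. F11r, which encodes JAM-A, read 9.05 and 9.28 against 8.78 and 9.03, with a difference of -0.26 (SE 0.19) and the nearest arrays of the groups almost level. Tjp1, which encodes ZO-1, read 9.04 and 8.96 against 8.76 and 8.63 and differed by -0.31 (SE 0.17). The differences of F11r and Tjp1 were nearly the same in batch A (-0.28 for both) and batch B (-0.25 and -0.33).

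**Figure D2:**
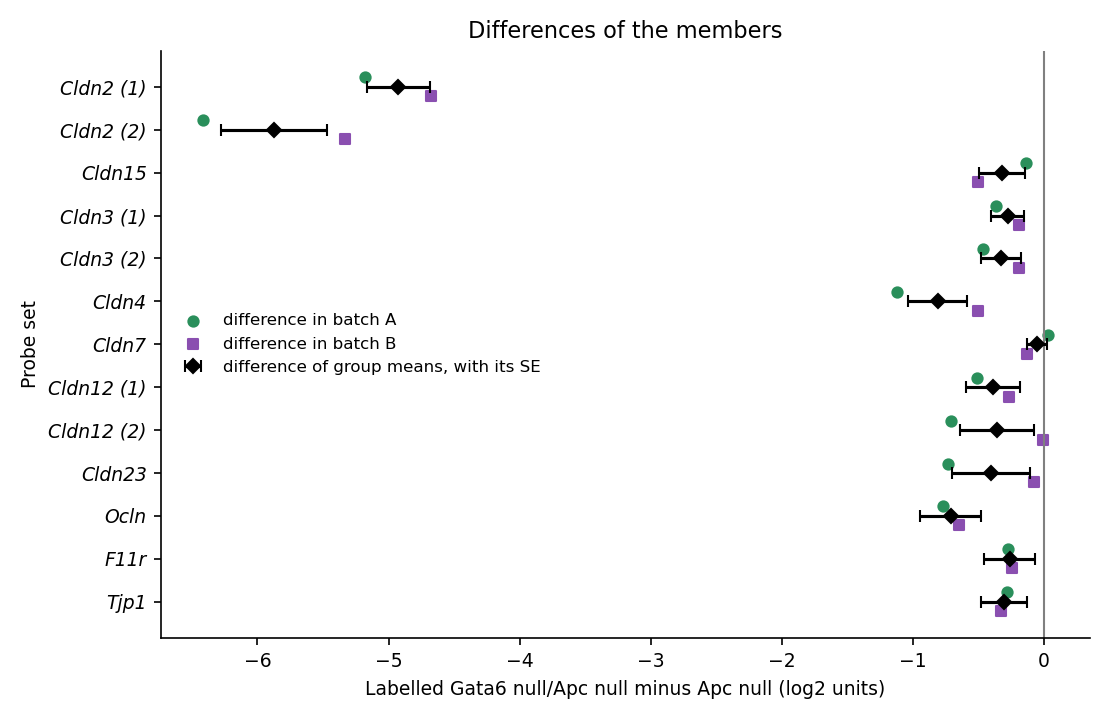
Difference between arrays labelled Gata6 null/Apc null and Apc null arrays in log2 units for the 13 probe sets, as the difference of group means with its standard error from the limma fit over all probe sets (black), and within batch A (green) or batch B (purple). The 2 Cldn2 probe sets stand at -4.93 and -5.87 and the other 11 between -0.81 and -0.05.

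All 10 genes had a negative difference, and in 9 of 10, all but Cldn7, the groups did not overlap, with the arrays bearing the label Gata6 null/Apc null lower. Over all genes tested 55.9% had a negative difference, 17.3% were lower without overlap and 32.0% were apart in either direction. The median difference was -0.36 over the 10 genes and -0.03 over all genes tested, where the median size of a difference was 0.16. Of the 10, 1 gene, Cldn2, was among the 77 genes called by limma at an adjusted p under 0.05 (0.648% of genes, with 0.126% called as lower), and both Cldn2 probe sets were among the 54 called over probe sets (0.200%). With the batch as a block, Cldn4 and Ocln were called as well, 3 of 10 against 6.88% of all genes. As the values of this contrast were known when the genes were chosen, nothing is read from these counts. The share of genes with a more negative difference was 3.1% for Cldn4, 3.87% for Ocln, 10.2% to 17.4% for Cldn23, Cldn12, Cldn15, Tjp1, Cldn3 and F11r, and 45.9% for Cldn7.

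Differences between the batches, which did not choose the members, were tested in a limma fit with genotype and batch as terms. No member was called at an adjusted p under 0.05, while 16.6% of all genes were. Before adjustment 2 of the 10, Ocln and Cldn12, had a p under 0.05, as did 3986 of 11874 genes. Batch B minus batch A ranged from -0.34 (SE 0.12) for Ocln to 0.28 (SE 0.11) for Cldn12, with adjusted p-values from 0.105 to 0.922. For Cldn2 it was 0.16 (SE 0.17, adjusted p = 0.555). Over all genes the median size of a batch difference was 0.25. In this contrast the fit has 1 residual degree of freedom.

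Of 17 other claudin genes, 13 were matched by name on the array and most of these were dim. The limit of 4.45 was passed in mean by 4, Cldn13, Cldn14, Cldn18 and Cldn22. Their differences lay between -0.23 and 0.13, and their highest value on any array was 6.11, for Cldn14. Cldn18, the claudin of stomach and lung, had the smallest p of them, with 4.64 and 4.52 against 4.36 and 4.34 (difference -0.23, SE 0.13, adjusted p = 0.872), and it passed the limit only through the Apc null arrays. Cldn1, Cldn5, Cldn6, Cldn8, Cldn9, Cldn10, Cldn11, Cldn16 and Cldn19 had means under the limit. Among these, Cldn8, a sealing claudin of the distal colon, read 3.99 and 3.91 against 5.07 and 4.57. It was named after its values were seen, and its higher readings in the arrays bearing the label Gata6 null/Apc null lie close to the floor.

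Other genes of epithelial junctions, with enzymes and transcription factors that act on claudins, were taken from 7 lists with 105 symbols in all. Of these, 92 were on the array and 74 were tested. The lists were chosen with earlier results of these data known. Their counts and adjusted p-values are therefore a description, and nothing is read from them. By limma with adjustment over all genes, none of the 74 was called, beside 0.648% of all genes. With the batch as a block 2 were higher and 9 lower, 14.9% of the 74 against 6.88% of all genes. The fit with the block has 1 residual degree of freedom. SEs printed for list genes come from the fit without it. Before adjustment 12 of the 74 had a p under 0.05 without the block, as did 946 of all 11874. The median difference was -0.12 over the 74 and -0.03 over all genes tested. Of the 74, 51 were negative (68.9%), against 55.9% of all genes tested.

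Among 10 further membrane proteins of tight junctions, 1 was lower with the block, beside 353 of all 11874 genes. This was Ildr1, an angulin of the corners between cells. It read 7.18 and 7.16 against 6.00 and 6.39, a difference of -0.97 (SE 0.26, adjusted p = 0.337, or 0.0425 once batch was a term). Jam2, which encodes a second junctional adhesion molecule, differed by 0.47 (adjusted p = 0.591), having passed the filter only through the arrays where it was higher (4.59 and 4.95, against 4.23 and 4.36), and Igsf5, of the same family, by -0.39 (adjusted p = 0.864). Marveld2, which encodes tricellulin, differed by 0.04 and was named after its values were seen.

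Of 21 scaffold and polarity genes, 2 were higher and 2 lower with the block, beside 464 and 353 of all 11874 genes. The list's median was -0.25, against -0.03 over all genes tested. Pard6g, which encodes an adaptor of the PAR polarity complex, read 5.87 and 5.71 in the Apc null arrays and 7.99 and 7.58 in the arrays bearing the label Gata6 null/Apc null. Its difference of 1.99 (SE 0.27, adjusted p = 0.0789, or 0.00335 once batch was a term) was the largest increase in the 7 lists. Its relative Pard6b differed by -0.69, chosen after its values were seen. Cgnl1, which encodes paracingulin of the junctional plaque, differed by -0.74 (SE 0.24, adjusted p = 0.486, or 0.0336 once batch was a term). Magi1, a scaffold with several PDZ domains, differed by -0.68 (adjusted p = 0.581, or 0.0868 once batch was a term). The other genes called with the block were the angiomotin genes Amot (0.62, adjusted p = 0.598, or 0.0292 once batch was a term) and Amotl1 (-0.76, adjusted p = 1.00, or 0.0421), named after their values were seen. Amotl1 also differed between batches, by 1.04 (adjusted p = 0.0149).

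In the adherens junction, which lies just below the tight junction, 2 of 12 genes were lower with the block, beside 353 of all 11874. Both were nectins, which are adhesion molecules of the immunoglobulin family. Nectin3 read 10.25 and 10.36 against 9.01 and 9.17, a difference of -1.21 (SE 0.15, adjusted p = 0.0691, or 0.00172 once batch was a term). Nectin1 read 7.99 and 8.13 against 6.58 and 6.78, a difference of -1.38 (SE 0.24, adjusted p = 0.138, or 0.00765 once batch was a term). For each, both arrays labelled Gata6 null/Apc null lay more than 1 log2 unit below both Apc null arrays. Vcl, which encodes the actin linker vinculin, differed by -0.35 (adjusted p = 0.727). Cdh1, the gene of E-cadherin, differed by -0.23, and Ctnnb1, the gene of beta-catenin, by 0.10, both named after their values were seen. Of 9 desmosome genes 2 were lower with the block: the desmosomal cadherin gene Dsc2, with -0.79 (SE 0.25, adjusted p = 0.468, or 0.0145 once batch was a term), and Perp, with -0.50 (SE 0.21, adjusted p = 0.691, or 0.0464 once batch was a term). The plakin gene Evpl differed by 0.39 (adjusted p = 0.965).

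Among 9 enzymes and partners that act on claudins, none was called with the block, beside 6.88% of all genes, or without it, beside 0.648%. Mylk, the kinase of myosin light chain whose activity opens tight junctions, had the largest difference, with 6.24 and 7.14 against 8.00 and 7.87 (1.25, SE 0.37, adjusted p = 0.417, or 0.0505 once batch was a term). Its Apc null arrays were 0.91 apart. Prss8, the gene of the membrane protease prostasin, differed by -0.42 (adjusted p = 0.842), and St14, the gene of matriptase, by 0.23 (adjusted p = 1.00). Of 9 transcription factors that act on claudin genes, 2 were lower with the block, beside 353 of all 11874 genes. Cdx2, the caudal homeobox factor of intestinal identity, read 9.13 and 9.41 against 7.29 and 8.11, a difference of -1.57 (SE 0.34, adjusted p = 0.228, or 0.00545 once batch was a term). Hnf4a, a nuclear receptor of gut epithelium, differed by -0.39 (SE 0.12, adjusted p = 0.440, or 0.0419 once batch was a term), and Grhl1, a grainyhead factor, by 0.69 (adjusted p = 0.746).

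**Figure D3:**
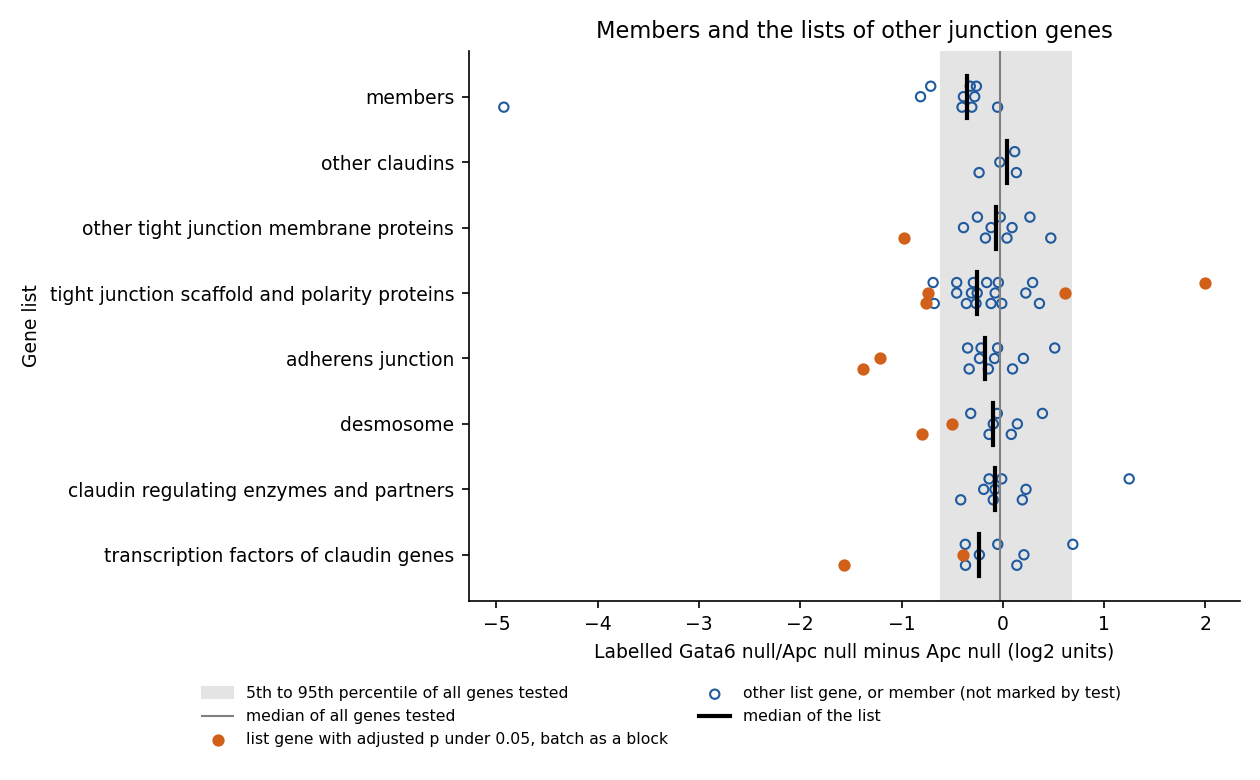
Differences in log2 units (arrays labelled Gata6 null/Apc null minus Apc null arrays) of the 10 members and of the tested genes of the 7 junction lists, with list medians (black bars), the central span of all genes tested, between the percentiles in the legend (grey band), the median of all genes (grey line) and, for list genes, those with a limma adjusted p under 0.05 with the batch as a block (filled orange circles). Cldn2 at -4.93 lies far from all list genes, which range from -1.57 (Cdx2) to 1.99 (Pard6g).

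Levels of cell type markers are given beside these genes, and limma without the block called none of them, beside 0.648% of all genes. The summed level of 5 goblet cell markers lay between 11.8 and 11.9 in the Apc null arrays and between 10.8 and 11.4 in the others. All 4 tested goblet markers were negative and 3 of them apart without overlap, where 55.9% of all genes were negative and 17.3% lower without overlap, and Agr2 (-1.81) was called once batch was a term (adjusted p = 0.00349). The summed level of 8 markers of surface colonocytes lay between 12.6 and 13.0 against 12.0 and 12.3. That sum was set mostly by its brightest genes, Ceacam1, Car1 and Lypd8. Car4, Aqp8 and Slc26a3 had means under the dim limit and were not tested. Of 5 tested, the block called Car1 (-1.73) and Ceacam1 (-0.26) as lower and Slc9a3 as higher, beside 6.88% of all genes. Slc9a3 read 3.80 and 3.88 against 5.99 and 4.77, and so passed the filter only through the arrays where it was higher. The summed level of 8 epithelial markers lay between 13.98 and 14.07 against 13.82 and 13.86. All 8 were negative and 6 apart, beside the same 55.9% and 17.3% of all genes, with Cdx2 at -1.57 and the other 7 between -0.24 and -0.01. The 3 colon markers had no common direction: Hoxb13 (0.69) and Hoxd13 (1.74), homeobox genes of the hindgut, were higher and Car1 lower with the block, and their summed level lay between 11.2 and 12.0 against 11.3 and 11.6. The part of these markers in the differences of the junction genes was not tested.

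The genes whose profile over the 4 arrays was nearest to that of Cldn2, by Euclidean distance between log2 values minus each gene's mean, were Gm11545 (0.605), Spink4 (0.909), Lyz2 (0.970, from probes open to matching related genes), Tm4sf5 (1.26) and Gcnt3 (1.32). Their differences lay between -4.45 for Gm11545 and -3.77 for Gcnt3. Spink4 is a goblet cell gene, Gcnt3 encodes an enzyme of mucin glycosylation, Lyz2 a lysozyme and Tm4sf5 a membrane protein of the tetraspan family. All 5 read between 7.82 and 11.14 in the Apc null arrays and between 4.24 and 6.51 in the others, so the likeness is one of direction and size over 4 arrays that all genes share. On the X chromosome the coding genes directly beside Cldn2 were not among those tested. The nearest tested were Tbc1d8b (0.35) and Rnf128 (-0.17) on one side, with 1 and 2 coding genes between, and Rbm41 (-0.09) and Prps1 (-0.39) on the other, with 1 and 5 between, each with overlapping groups and an adjusted p of 1.00. The neighbours were chosen by position alone.

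**Figure D4:**
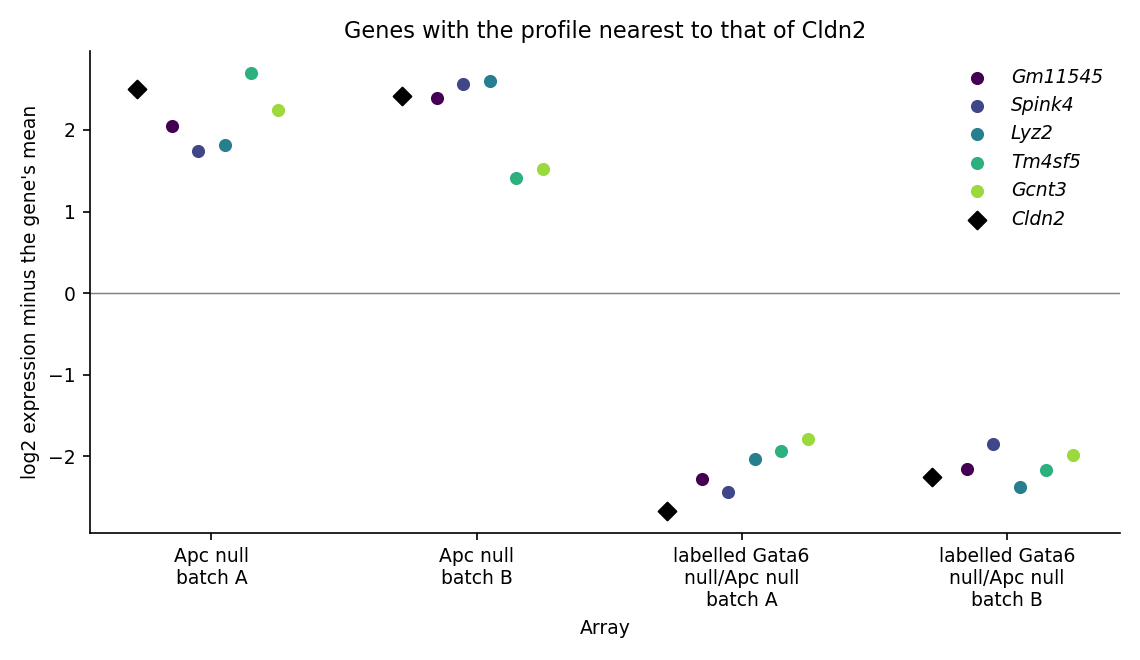
Log2 expression minus the gene's own mean over the 4 arrays, for Cldn2 (diamonds) and the 5 genes at the smallest distance from it (circles). Each gene lies above its mean in both Apc null arrays and below it in both arrays labelled Gata6 null/Apc null, with distances from Cldn2 of 0.605 to 1.32.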

How the data were processed

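Expression was measured on 4 Affymetrix mouse arrays of adenoma organoid RNA, 2 per genotype label. Per the submitters' processing notes, the authors used RMA and the affy package, and the deposited values are log2 levels per probe set. RMA equalises the arrays, so a shift shared by most genes cannot be seen. Probe sets were named through the platform annotation, 28898 of 45037 having 1 gene, and a gene was represented by its brightest probe set. Probe sets with a mean under the 40th percentile were left out of tests. Differences were fitted with limma 3.58.1 in R 4.3.3 (lmFit, eBayes with a trend) over all genes passing the filter, with Benjamini-Hochberg adjustment and a threshold of 0.05. The fit was tested on simulated data, with known changes put in and genes varying independently. No difference between batches was put in for the genotype contrast, so that test does not bear on the counts with the block.

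The members and gene lists were chosen with earlier results of these data known. The genes named were Gata6 and Apc, the members, the 5 genes most like Cldn2 and genes of each junction list. Those of a list were the genes past the threshold or, with fewer than 3 such, those with the smallest p up to 3. Other names were picked with their values in view, apart from markers and the neighbours of Cldn2, Cldn3 and Cldn4. The labels do not say whether replicates came from separate mice, so p-values measure only the spread between these arrays. Batch letters come from the labels and cross the genotypes. The batch differences in the 2 genotypes correlated at 0.675 over genes, so batch was also fitted as a replicate block. Other alternatives were no trend, no filter, a filter at the 60th percentile, the mean of a gene's probe sets, omission of probe sets that can match shared sequence, and omission of each array. Symbols with no probe set of their own, and protein sequences, were not used here.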

Additional observations from a re-analysis of the deposited data

How the results depend on the processing

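Pairing arrays by batch letter, as a replicate block, moved the counts of called genes most: 464 higher and 353 lower against 62 and 15 without it, 688 higher and 509 lower against 46 and 8 over probe sets, and 2 higher and 9 lower against 0 and 0 in the lists of other junction genes. Leaving out each array in turn gave 24 to 118 genes higher and 9 to 12 lower (24 without Apc null batch A, 37 without Apc null batch B, 118 without Gata6 null/Apc null batch A and 74 without Gata6 null/Apc null batch B, as higher). Over probe sets it gave 0 to 9 higher and 0 lower. Each of these 4 fits leaves a group with 1 array, assumed to vary like the other group. The batch contrast without a trend called 873 genes against 1977. The cause of these shifts was not tested.

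The differences of the members had been seen when they were chosen, so their calls under the alternatives are not read as support. The Cldn2 difference was -5.40 as the mean of its probe sets. With an array left out it was -5.14 to -4.72, and those of the others -1.10 to -0.52 (Cldn4), -0.91 to -0.51 (Ocln), -0.69 to -0.11 (Cldn23), -0.59 to -0.19 (Cldn12), -0.43 to -0.22 (Cldn15), -0.40 to -0.16 (Cldn3), -0.39 to -0.14 (F11r), -0.37 to -0.24 (Tjp1) and -0.12 to 0.02 (Cldn7). The smallest difference of Cldn23 and of Cldn3 came without Apc null batch A, those of Cldn4, Cldn12 and F11r without Gata6 null/Apc null batch A. TGATAA in Tjp1 lies outside the 150 bases nearest the start, where no member window held it. With 2 arrays per group the precision is limited by their number, and levels near 4.45 log2 units cannot be told from the array floor.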
